A study of Mus musculus with 5 samples.

Results

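Adrenomedullin signalling and peptide amidation were followed through 6 genes in the atria of newborn mice that lost the cardiac homeodomain factor Nkx2-5. The genes are Adm, the precursor of the vasodilator peptide adrenomedullin; Pam, the enzyme that amidates it; Calcrl, the calcitonin receptor-like receptor; and Ramp1, Ramp2 and Ramp3, the membrane partners that set which ligand that receptor binds. They were the rows of the deposited table whose symbol matched these names, 6 of 40624 genes, and all 6 were among the 17835 genes with enough reads to be tested. The set was selected on the low counts of Adm and Pam in mutant against control atria, so the difference of these 2 genes between the groups is a description, with no p-value given. The 4 receptor genes joined the set for their function and were tested with all other genes.

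Adrenomedullin is made as a longer precursor, cut out by prohormone convertases and given a C-terminal amide by Pam, a copper- and ascorbate-dependent enzyme of the secretory pathway. The amide is needed for full activity at the receptor. Pam is the main peptide-amidating enzyme of mammals, and its protein is unusually abundant in the membranes of atrial secretory granules. Calcrl with Ramp2 or Ramp3 forms adrenomedullin receptors, and Calcrl with Ramp1 forms the receptor of calcitonin gene-related peptide (CGRP). Calcrl and Ramp2 are prominent in vascular and lymphatic endothelium.

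The mutant group held 2 libraries (replicates 5 and 7) of SLN-Cre; Nkx2-5-flox/flox atria, and the control group held 3 libraries (replicates 2, 4 and 6) of SLN-Cre; Nkx2-5-flox/+ atria. All were of strain C57BL/6 at postnatal day 1. Both groups thus carried the Cre, which is driven by the sarcolipin gene of atrial muscle, and at least 1 floxed allele, and the control group was heterozygous once Cre had acted. RNA came from whole atrial tissue, in which genes of non-muscle cells are measured together with those of the myocytes that express the Cre. The labels do not say whether each library was a separate animal, so p-values reflect the variation among these 5 libraries, which may be technical.

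Gene counts summed to 69648013 to 78841494 in mutant and 58501214 to 60899334 in control libraries. Nkx2-5 itself stood at 5.79 and 5.21 CPM (counts scaled to a common library total) in mutants 5 and 7, against 76.8, 72.1 and 71.3 CPM in controls 2, 4 and 6. The atrial label held: Myl7, the atrial myosin light chain, was at 9949 to 11075 CPM in all 5 libraries. Myl2, its ventricular relative, was at 8.26 to 95.9 CPM and was highest in control 6. Its groups overlapped. Of the 5 ventricular markers listed, the mutant libraries lay wholly below the controls for 2 and wholly above for 2. By edgeR's quasi-likelihood test, 6.58% of all tested genes passed an adjusted p of 0.05 in either direction, 3.02% higher and 3.57% lower in mutant atria. The mutant libraries lay wholly above or wholly below the control libraries for 37.9% of tested genes, 18.6% above and 19.2% below.

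The promoters of the genes the results turn on are shown first, since Adm and Pam were low together while Calcrl was not, and Ramp1 lay between them. Each window runs from 250 bases before to 50 bases after a start site in RefSeq's table for GRCm38.p6, a later build than the mm9 of the counts. Of the 6 genes, 5 had a window there and Ramp2 had none. Capitals mark exact matches to short motifs. One is AAGTG, the core bound by homeodomains of the Nkx2 class, sought on either strand. Others, also on either strand, are the core of hypoxia response elements, spelled ACGTG or, in its variant form, spelled GCGTG. The last is TATAA, the TATA box, sought on the strand shown. A longer Nkx2 motif, TNAAGTG, which contains the core, was searched on both strands too. The Adm window is chr7:110627407-110627706 (+), the Pam window chr1:98095597-98095896 (-), the Calcrl window chr2:84425217-84425516 (-) and the Ramp1 window chr1:91179572-91179871 (+).
Adm: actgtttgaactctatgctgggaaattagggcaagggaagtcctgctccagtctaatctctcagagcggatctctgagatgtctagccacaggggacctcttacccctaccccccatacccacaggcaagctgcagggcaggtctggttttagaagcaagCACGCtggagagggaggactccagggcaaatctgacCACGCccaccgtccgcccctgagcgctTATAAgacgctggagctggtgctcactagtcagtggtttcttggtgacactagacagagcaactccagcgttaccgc
Pam: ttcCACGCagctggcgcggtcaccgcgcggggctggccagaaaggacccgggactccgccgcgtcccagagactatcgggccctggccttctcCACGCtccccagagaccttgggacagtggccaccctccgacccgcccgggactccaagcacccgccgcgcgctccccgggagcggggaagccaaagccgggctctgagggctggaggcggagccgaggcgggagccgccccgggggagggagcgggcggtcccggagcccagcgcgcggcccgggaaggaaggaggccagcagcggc
Calcrl: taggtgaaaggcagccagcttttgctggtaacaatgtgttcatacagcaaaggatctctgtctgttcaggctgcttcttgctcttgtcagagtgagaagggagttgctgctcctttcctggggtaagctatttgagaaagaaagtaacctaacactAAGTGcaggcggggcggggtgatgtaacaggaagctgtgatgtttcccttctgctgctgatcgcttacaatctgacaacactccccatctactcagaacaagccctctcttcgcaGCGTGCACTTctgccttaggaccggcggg
Ramp1: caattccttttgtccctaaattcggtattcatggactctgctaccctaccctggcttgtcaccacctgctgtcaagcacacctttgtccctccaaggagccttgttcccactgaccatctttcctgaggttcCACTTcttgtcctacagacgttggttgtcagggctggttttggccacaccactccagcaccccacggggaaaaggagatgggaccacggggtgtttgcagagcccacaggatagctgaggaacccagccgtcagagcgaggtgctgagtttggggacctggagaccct

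The Adm window held TATAA beginning 27 bases before the start site and 2 matches to GCGTG on the other strand, which read CACGC above. It held 0 matches to either Nkx2 motif and 0 to ACGTG. The Pam window was richer in G and C (76.3%, against 56.0% in Adm) and also held 2 matches to GCGTG and 0 to AAGTG. A second RefSeq start of Pam, a few bases away, gave a window with the same counts. Calcrl held 2 matches to AAGTG, 1 of them directly after its single GCGTG, and Ramp1 held 1. TNAAGTG and ACGTG occurred in no window of the 5 genes. Such short words are common: AAGTG was present in 46.4% of 32851 RefSeq windows, GCGTG in 32.4%, ACGTG in 19.6%, TATAA in 17.5% and TNAAGTG in 11.5%. The matches describe these letters in these windows and nothing about binding.

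Adm, the ligand, was the member with the largest difference between the groups. Its coding span lies on chromosome 7, 117771793 to 117772682 on the plus strand (mm9, ENSMUSG00000030790). It had 8.28 and 8.93 CPM in mutants 5 and 7, against 56.9, 47.7 and 45.3 CPM in controls 2, 4 and 6. Both mutant libraries lay far below the lowest control library, and they differed from each other by less than the controls did. The mutant mean of 8.61 ± 0.46 CPM (SD, n = 2) was 17.2% of the control mean of 49.97 ± 6.16 CPM (SD, n = 3). The log2 fold change was -2.54 ± 0.12 (SE), a level 5.81-fold lower in mutant atria. These values rest on 646 and 610 reads in mutants 5 and 7, against 3357, 2837 and 2787 reads in controls 2, 4 and 6, and counting error alone is 4.05% of the lowest of these.

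Per kilobase of exon, the scale on which levels of different genes can be compared, Adm stood at 5.97 and 6.44 CPM per kilobase in mutants 5 and 7, against 41.1, 34.4 and 32.6 in controls 2, 4 and 6. By mean level on that scale it ranked 6541 of 17835 tested genes in mutant atria and 1440 in control atria.

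Pam, the amidating enzyme, was among the most abundant transcripts of the tissue in both groups. Its coding span lies on chromosome 1, 99691949 to 99873534 on the minus strand (mm9, ENSMUSG00000026335). It had 1439 and 1299 CPM in mutants 5 and 7, against 4116, 3484 and 4126 CPM in controls 2, 4 and 6. Again the groups did not overlap, and the spread within each was small beside the gap between them. The means were 1369 ± 98.8 CPM in mutant (SD, n = 2) and 3909 ± 367 CPM in control atria (SD, n = 3), so mutant atria held 35.0% of the control level. The log2 fold change was -1.51 ± 0.10 (SE), which is 2.86-fold lower in mutant atria.

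By mean CPM, Pam ranked 51 of 17835 tested genes in mutant atria and 18 in control atria. Per kilobase it ranked 500 in mutant and 164 in control atria, as its deposited exonic length is long (13538 bases). Per kilobase, Pam exceeded Adm 17.8- and 14.9-fold in mutants 5 and 7, against 7.41-, 7.49- and 9.33-fold in controls 2, 4 and 6. The enzyme transcript therefore stayed in excess of the ligand transcript in every library, by a wider margin in both mutant libraries than in any control library. That ratio follows from the 2 differences given above and was not tested.

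**Figure D1:**
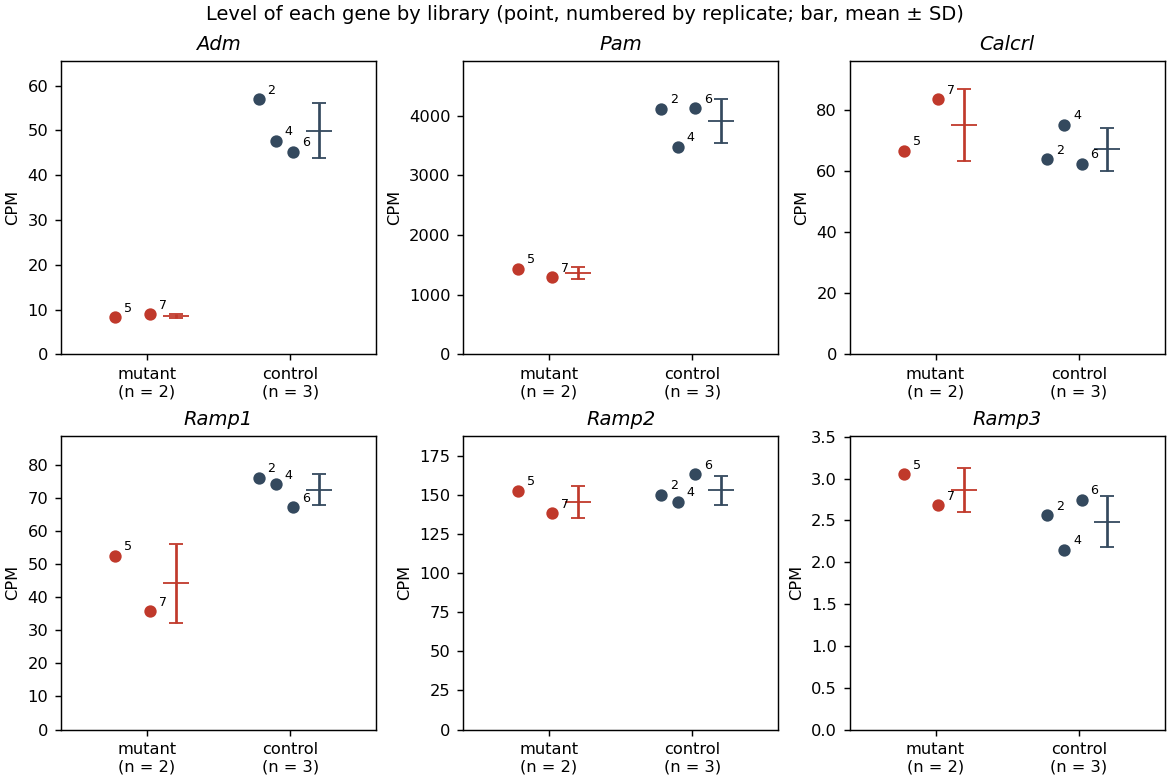
Level in CPM of each of the 6 genes in each library, mutant left and control right; points are libraries numbered by replicate, and bars give the mean ± SD of 2 mutant and 3 control libraries. Adm, Pam and Ramp1 have both mutant libraries below all control libraries, and the groups overlap for Calcrl, Ramp2 and Ramp3.

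Sex could be read from Xist and Ddx3y, with 1 male library in each group. Within males, mutant 5 against control 4, the log2 difference was -2.53 for Adm and -1.28 for Pam. Within females, mutant 7 against controls 2 and 6, it was -2.51 for Adm and -1.67 for Pam. These values have no replicate in the mutant group. Since both mutant libraries lay below all controls for these genes, their sign within each sex was fixed beforehand.

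In the authors' deposited table, the pooled RPKM of Adm was 5.66 in mutant and 33.4 in control atria, and that of Pam was 92.8 in mutant and 268 in control atria. The authors' deposited log2 ratios were -2.56 for Adm and -1.53 for Pam.

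In bulk tissue, fewer cells of a type and less RNA per cell cannot be told apart. Among the marker lists of cell types, the epicardial list moved in the same direction as Adm and Pam: 5 of its 6 members fell, with a median log2 fold change of -0.68, and its summed level was 717 to 723 CPM in mutant and 1059 to 1239 CPM in control libraries. Of 8 fibroblast markers, 2 fell and 1 rose, and their summed level was 5356 to 5572 CPM in mutant and 6570 to 7613 CPM in control libraries. Of all tested genes, 3.57% passed as lower and 3.02% as higher, and their median log2 fold change was 0.01. No marker of either list was at 0, and their part in the values of Adm and Pam was not tested. Of 10 atrial myocyte markers, 1 passed. That was Nppa, the precursor of atrial natriuretic peptide, which fell, while the summed level of the list was 61927 to 66589 CPM in mutant and 63601 to 66202 CPM in control libraries.

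Calcrl, the receptor itself, did not pass the test. Its coding span lies on chromosome 2, 84173611 to 84215502 on the minus strand (mm9, ENSMUSG00000059588). Its level was 66.8 and 83.6 CPM in mutants 5 and 7, against 63.9, 75.3 and 62.6 CPM in controls 2, 4 and 6. Mutant 7 was the highest library and mutant 5 lay within the control range. The log2 fold change was 0.16 ± 0.12 (SE), with a 95% interval of -0.11 to 0.44 and an adjusted p of 0.51 (edgeR's quasi-likelihood test, Benjamini-Hochberg). Its sign rested on mutant 7, without which the value was -0.015. Within males the log2 difference was -0.17, and within females it was 0.40.

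Ramp2, the partner that gives Calcrl its main adrenomedullin binding, was the most abundant of the 3 Ramp genes. It lies on chromosome 11, with a coding span of 101107766 to 101115018 on the plus strand (mm9, ENSMUSG00000001240). Ramp2 had 152 and 138 CPM in mutants 5 and 7, against 150, 145 and 163 CPM in controls 2, 4 and 6. The groups overlapped, and the log2 fold change of -0.07 ± 0.08 (SE) had a 95% interval of -0.24 to 0.10, which bounds any difference in these samples well below that of Adm or Pam. Its adjusted p was 0.66 by the same edgeR test. In GENCODE vM21, 1103 exonic bases of Ramp2 are shared with Vps25, a gene on the same strand. How reads there were assigned is not known, and Vps25 had only 61 to 87 counts of its own per library.

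Ramp3, which forms another adrenomedullin receptor with Calcrl, was scarce. Its coding span lies on chromosome 11, 6558576 to 6576741 on the plus strand (mm9, ENSMUSG00000041046). It had 238 and 183 counts in mutants 5 and 7, against 151, 128 and 169 counts in controls 2, 4 and 6, which is 3.05 and 2.68 CPM in mutants against 2.56, 2.15 and 2.75 CPM in controls. The groups overlapped on the CPM scale. Ramp3 had a log2 fold change of 0.20 ± 0.19 (SE), its 95% interval ran from -0.22 to 0.63, and the adjusted p was 0.60 (edgeR). Counting error alone was 8.84% in control 4, the library with the fewest Ramp3 reads.

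Ramp1, the partner of the CGRP receptor, was lower in both mutant libraries, but they disagreed on how much. Its coding span lies on chromosome 1, 93076666 to 93119938 on the plus strand (mm9, ENSMUSG00000034353). It had 52.6 and 35.8 CPM in mutants 5 and 7, against 76.1, 74.0 and 67.2 CPM in controls 2, 4 and 6. No mutant value reached the control range, and mutant 7 lay well below mutant 5. The mutant mean was 44.2 ± 11.9 CPM (SD, n = 2) and the control mean 72.5 ± 4.62 CPM (SD, n = 3). The log2 fold change of -0.71 ± 0.17 (SE) narrowly missed the threshold (adjusted p = 0.063, edgeR).

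The call for Ramp1 depended on the setting. It was -1.02 without mutant 5 and -0.47 without mutant 7, and both of these passed (adjusted p of 7.6e-04 and 0.024, edgeR). It passed in 5 of 12 alternative fits in all, including DESeq2 (adjusted p = 1.7e-04), limma-voom (0.034) and edgeR with sex as a covariate (0.031). Those tools and samples also set how many genes passed overall. The share lower in mutant atria was 5.85% with DESeq2, 3.04% with limma-voom, 2.88% with the sex covariate, 4.38% without mutant 5 and 2.49% without mutant 7. In either direction the shares were 11.2%, 5.54%, 5.52%, 9.33% and 4.68% in the same order. The authors' deposited table gives Ramp1 an adjusted p of 1.99e-07. Within males the log2 difference was -0.49, and within females it was -0.999. In every setting the value was negative, but both mutant libraries lay below all controls. Its sign within each sex and with 1 library left out was thus fixed beforehand.

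**Figure D2:**
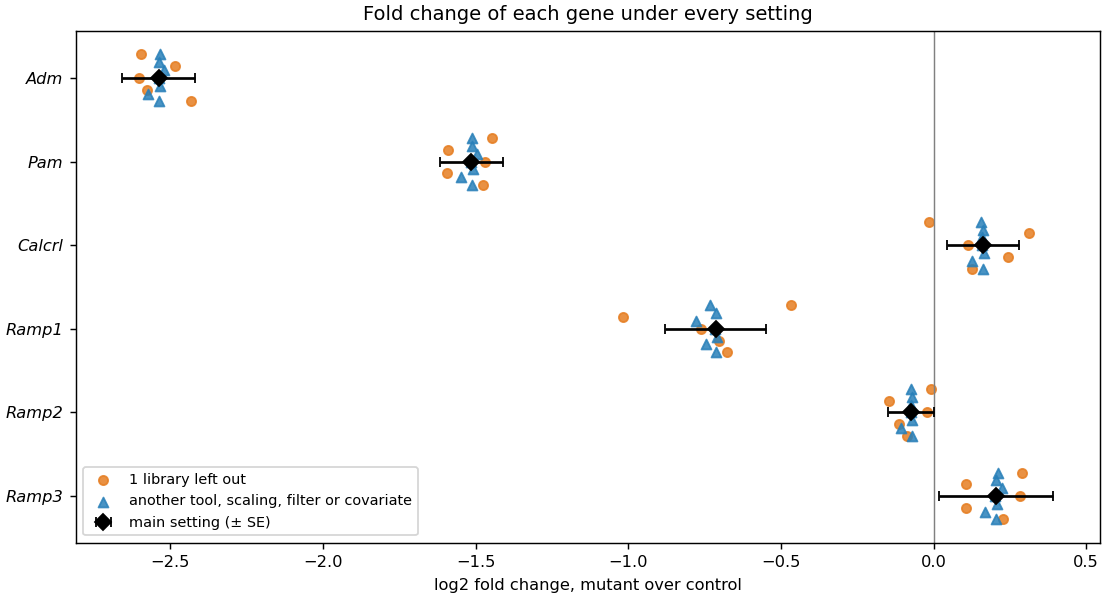
Log2 fold change (mutant over control, horizontal axis) of each gene in the main fit with its SE (diamond), with 1 library left out (circles) and with another tool, scaling, filter or covariate (triangles). Adm stays between -2.60 and -2.43 and Pam between -1.60 and -1.45, Ramp1 ranges from -1.02 to -0.47, and Calcrl crosses 0.

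Of the 4 receptor genes, 0 passed edgeR's test, against 6.58% of all tested genes, and 1, Ramp1, passed with DESeq2 and with limma-voom. In edgeR 1 of the 4, Ramp1, had an unadjusted p under 0.05. For 1 of the 4, Ramp1, the mutant libraries were wholly below the controls, and for the other 3 the groups overlapped. Adm and Pam also lay wholly below, but the set was selected on that difference, so they are not counted here. Across all tested genes, 19.2% had the mutant libraries wholly below.

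Calcrl needs a Ramp partner, so the makeup of the Ramp pool is given next. Per kilobase of exon, Ramp1 supplied 31.6% and 25.8% of the summed Ramp level in mutants 5 and 7, against 40.6%, 40.8% and 35.8% in controls 2, 4 and 6. Ramp2 supplied 65.7% and 71.4% in mutants 5 and 7, against 57.4%, 57.5% and 62.1% in controls 2, 4 and 6. Ramp3 supplied 2.64% and 2.79% in mutants 5 and 7, against 1.97%, 1.71% and 2.10% in controls 2, 4 and 6. The Ramp1 share was thus lower, and both other shares higher, in each mutant library than in every control. The shares of a library sum to the whole, so a lower Ramp1 level alone raises the others. The summed Ramp level was 48.7 and 40.6 CPM per kilobase in mutants 5 and 7, against 54.8, 53.1 and 55.1 in controls 2, 4 and 6. These shares combine members of the set and carry no test.

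Calcrl was less abundant per kilobase than Ramp2 in all libraries, at 8.63 and 10.8 CPM per kilobase in mutants 5 and 7, against 8.26, 9.73 and 8.08 in controls 2, 4 and 6. The Ramp genes together exceeded it 5.64- and 3.76-fold in mutants 5 and 7, against 6.64-, 5.46- and 6.81-fold in controls 2, 4 and 6. Control 4 lay just below mutant 5, so the groups overlapped. Adm was 0.69 and 0.60 of the Calcrl level in mutants 5 and 7, against 4.97, 3.53 and 4.04 times that level in controls 2, 4 and 6. The ligand transcript was therefore the less abundant of the pair in both mutant libraries and the more abundant in every control library. That ratio follows from the Adm difference given above and was not tested. Its size also depends on the exonic lengths used. These are 7739 bases for Calcrl and 1387 for Adm as deposited, against 4882 and 1619 bases in GENCODE vM21.

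**Figure D3:**
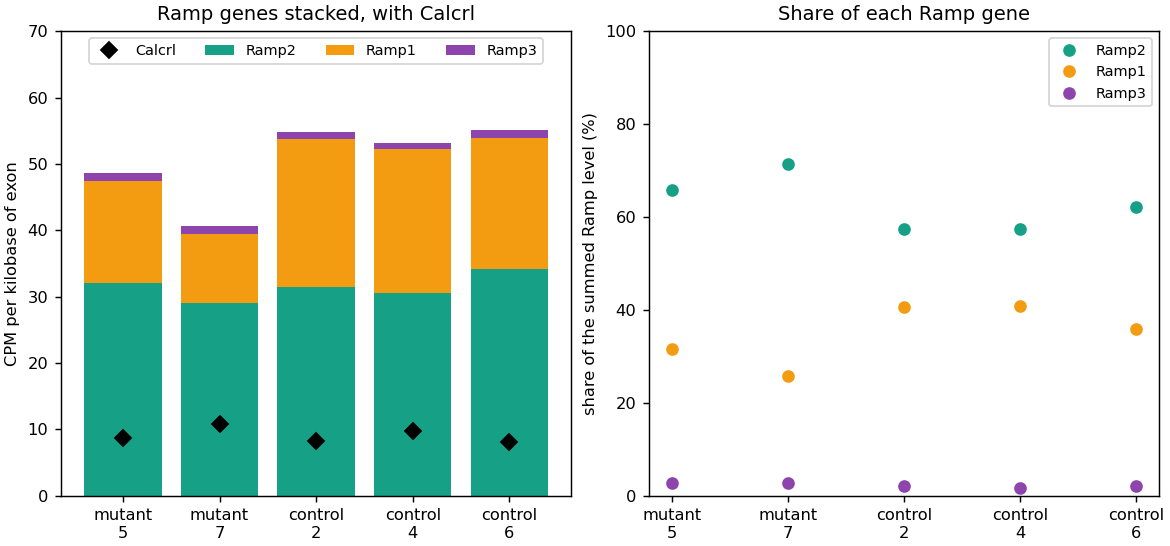
Left, stacked CPM per kilobase of exon of Ramp2, Ramp1 and Ramp3 in each library with Calcrl as a diamond; right, the share of each Ramp gene in their sum (%). Ramp1 makes up 25.8% to 31.6% in the mutant and 35.8% to 40.8% in the control libraries.

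Endothelial markers leaned higher in mutant atria. All 13 had a positive log2 fold change, with a median of 0.27. Against 3.02% of all tested genes, 2 of the 13 passed as higher. These were Eng, an endothelial co-receptor of transforming growth factor beta (0.38 ± 0.07, SE; adjusted p = 0.018, edgeR), and Tie1, an endothelial receptor kinase (0.33 ± 0.08, SE; adjusted p = 0.040, edgeR). Their summed level was 2482 to 2911 CPM in mutant and 2126 to 2224 CPM in control libraries, and mutant 7 was the higher of the mutants, as it was for Calcrl. Against the mean log2 level of this list, Calcrl stood at -0.83 and -0.78 in mutants 5 and 7, against -0.73, -0.56 and -0.73 in controls 2, 4 and 6. On that relative scale the difference, mutant minus control, was -0.13 for Calcrl, -0.36 for Ramp2, -1.03 for Ramp1 and -0.08 for Ramp3. On the same scale both mutant libraries lay below all controls for 3 of the 4 genes (not Ramp3), but also for 50.2% of all tested genes, since the mean of the list itself was 0.29 higher in mutant atria. The part of the endothelial share in the receptor values was not tested.

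Lymphatic endothelium, a known target of adrenomedullin, showed no common direction: of 5 tested markers, 1 rose and 4 did not pass. The rise was that of Flt4, the receptor of lymphatic growth factors (0.65 ± 0.13, SE; adjusted p = 0.031, edgeR). The other 4 had negative log2 fold changes, and the list median was -0.28. The summed level of the list was 211 to 218 CPM in mutant and 219 to 260 CPM in control libraries. Smooth muscle, whose cells can carry Ramp1, was read from its own markers. Of 6 such markers, 1 rose, Acta2, the smooth muscle actin (1.84 ± 0.14, SE; adjusted p = 9.3e-04, edgeR), and the summed level was 1798 to 2169 CPM in mutant and 690 to 862 CPM in control libraries. The part of these cells in the Ramp1 value was not tested. Of the remaining lists, 1 of 5 leukocyte, 1 of 5 erythroid and 2 of 5 ventricular myocyte markers rose, and no other marker of these lists passed. Among all tested genes, 3.02% passed as higher and 3.57% as lower. The ventricular list was mixed: its 3 remaining markers had negative log2 fold changes, its median was -1.49, and its summed level was 206 to 231 CPM in mutant and 184 to 339 CPM in control libraries.

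The other genes of the pathway were described from 9 lists with 109 genes, of which 87 could be tested. Of these, 3 rose, 3 fell and 81 did not pass. The share that passed, 6.90%, was close to the 6.58% of all tested genes, and the median log2 fold change was 0.01, as it was over all tested genes. The share of genes that passed was thus near the background. The count of 6 was 3 without control 4 and 10 with DESeq2.

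Among the other ligands of the calcitonin family, Calca, the gene of calcitonin and alpha-CGRP, fell. It had 1.33 and 2.17 CPM in mutants 5 and 7, against 4.34, 4.10 and 3.79 CPM in controls 2, 4 and 6. Both mutant values lay below all controls, at low levels of 104 and 148 reads against 256, 244 and 233 reads. The log2 fold change was -1.22 ± 0.23 (SE) with an adjusted p of 0.017 (edgeR). It no longer passed when control 2 or control 4 was left out, the adjusted p reaching 0.066. Calcb, the gene of beta-CGRP, did not pass at -0.87 ± 0.34 (log2 fold change, SE; adjusted p = 0.18, edgeR). Adm2 (intermedin) had at most 2 reads in any library and Iapp (amylin) at most 1, so neither was tested.

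CGRP is best known as a peptide of sensory nerve fibres, whose cell bodies lie outside the atrium. Of 7 tested neuron and Schwann cell markers, 0 passed edgeR's test, 6 had a negative log2 fold change, and 1 had an unadjusted p under 0.05. With DESeq2 1 passed, and with limma-voom 0 passed. Their summed level was 11.2 to 18.9 CPM in mutant and 16.9 to 26.6 CPM in control libraries, and their part in the Calca value was not tested.

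Of 3 other tested receptor components, 0 passed edgeR's test, DESeq2 or limma-voom, and 0 had an unadjusted p under 0.05 in edgeR. Gpr182, a receptor of endothelium once proposed to bind adrenomedullin, stood at 89.5 and 77.4 CPM in mutants 5 and 7, against 71.3, 72.9 and 83.5 CPM in controls 2, 4 and 6. Ackr3, a scavenger receptor that takes up adrenomedullin (listed as Cxcr7), stood at 57.6 and 59.9 CPM in mutants against 54.1, 83.8 and 63.6 CPM in controls 2, 4 and 6. Both groups of values overlapped, and the adjusted p was 0.46 for Gpr182 and 0.64 for Ackr3 (edgeR). Crcp, a small component that aids CGRP receptor coupling, had a log2 fold change of 0.14 ± 0.10 (SE; adjusted p = 0.49, edgeR). Calcr, the calcitonin receptor, had 2 and 3 reads in mutants 5 and 7, against 16, 8 and 9 reads in controls 2, 4 and 6, and was below the filter.

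The machinery around Pam was read from 9 genes for copper delivery, ascorbate supply and binding of the Pam tail. Of these, 0 passed edgeR's test, 0 had an unadjusted p under 0.05, and 0 passed with DESeq2 or limma-voom. Atp7a, the pump that loads copper into the secretory pathway, stood at 17.1 and 25.7 CPM in mutants 5 and 7, against 20.9, 22.2 and 22.8 CPM in controls 2, 4 and 6. Values of -0.28 ± 0.15 (log2 fold change, SE) were found for Cyb561, an electron carrier that regenerates ascorbate inside granules, and -0.43 ± 0.25 for Rassf9, which binds the cytosolic tail of Pam. The list median was 0.01, equal to that of all tested genes.

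Adm was the most abundant amidated precursor per kilobase among the peptide genes searched, in all 5 libraries. The next was Nmb, the neuromedin B gene, in mutants 5 and 7 (3.59 and 3.61 CPM per kilobase), against 3.06 for Nmb in control 2, 4.01 for Npy in control 4 and 2.56 for Calca in control 6. Of 35 other genes whose peptides carry a C-terminal amide, 14 could be tested, 8 had no read in any library, and 1, Calca, passed. That was 7.14% of those tested, close to the 6.58% of all tested genes. Per kilobase, Adm made up 30.9% and 32.5% of the summed level of all these precursors in mutants 5 and 7, against 72.9%, 62.8% and 69.3% in controls 2, 4 and 6. A lower Adm level alone lowers that share, which was not tested. The other precursors summed to 13.4 CPM per kilobase in both mutants, against 15.2, 20.4 and 14.5 in controls 2, 4 and 6. Npy, the neuropeptide Y gene of sympathetic fibres, had 17 and 14 reads in mutants 5 and 7, against 43, 135 and 29 reads in controls 2, 4 and 6. It did not pass (log2 fold change -2.44 ± 0.76, SE; adjusted p = 0.13, edgeR) but passed with DESeq2.

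Downstream of the receptor, Calcrl couples to the stimulatory G protein and cyclic AMP. Of 17 genes of that arm, 1 rose and 16 did not pass. The share that passed, 5.88%, was close to the 6.58% of all tested genes. The rise was that of Adcy8, a calcium-stimulated adenylate cyclase, with 138 and 107 reads in mutants 5 and 7, against 6, 11 and 7 reads in controls 2, 4 and 6. Its log2 fold change was 3.63 ± 0.34 (SE; adjusted p = 9.6e-04, edgeR), and the call held in all alternatives run. Even so its level of 1.77 and 1.57 CPM in the mutants was low. Gnas, the alpha subunit of the stimulatory G protein, stood at -0.09 ± 0.08 (log2 fold change, SE), and Adcy5 and Adcy6, the main cardiac cyclases, had 0.07 ± 0.06 and 0.08 ± 0.09; none of the 3 passed.

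Adm is a classic target of hypoxia-inducible factors, and that programme showed no common direction. Of 24 other hypoxia-inducible genes, 2 rose, 2 fell and 20 did not pass, and the median log2 fold change was -0.06. The share that passed was 16.7%, against 6.58% of all tested genes, and 9 had an unadjusted p under 0.05 (edgeR). With DESeq2 6 passed and with limma-voom 3 passed, against 11.2% and 5.54% of all tested genes. The mutant libraries lay wholly above the controls for 6 and wholly below for 8, against 18.6% and 19.2% of all tested genes. P4ha2, a collagen prolyl hydroxylase, fell by 0.61 on the log2 scale (SE 0.08; adjusted p = 0.0036, edgeR), and the nucleotide kinase gene Ak4 fell by 0.32 (SE 0.07; adjusted p = 0.039). Slc2a1, the glucose transporter, rose by 0.33 ± 0.07 (SE; adjusted p = 0.034, edgeR). The calls of Slc2a1 and Ak4 were lost under several alternatives, with highest adjusted p of 0.15 each. Of the 8 genes for the factors and their regulators, 0 passed edgeR's test, DESeq2 or limma-voom, and 0 had an unadjusted p under 0.05 in edgeR. Hif1a stood at 133 and 139 CPM in mutants 5 and 7, against 146, 135 and 151 CPM in controls 2, 4 and 6, and Epas1 at 93.2 and 98.3 CPM in mutants against 96.8, 81.0 and 93.9 CPM in controls.

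**Figure D4:**
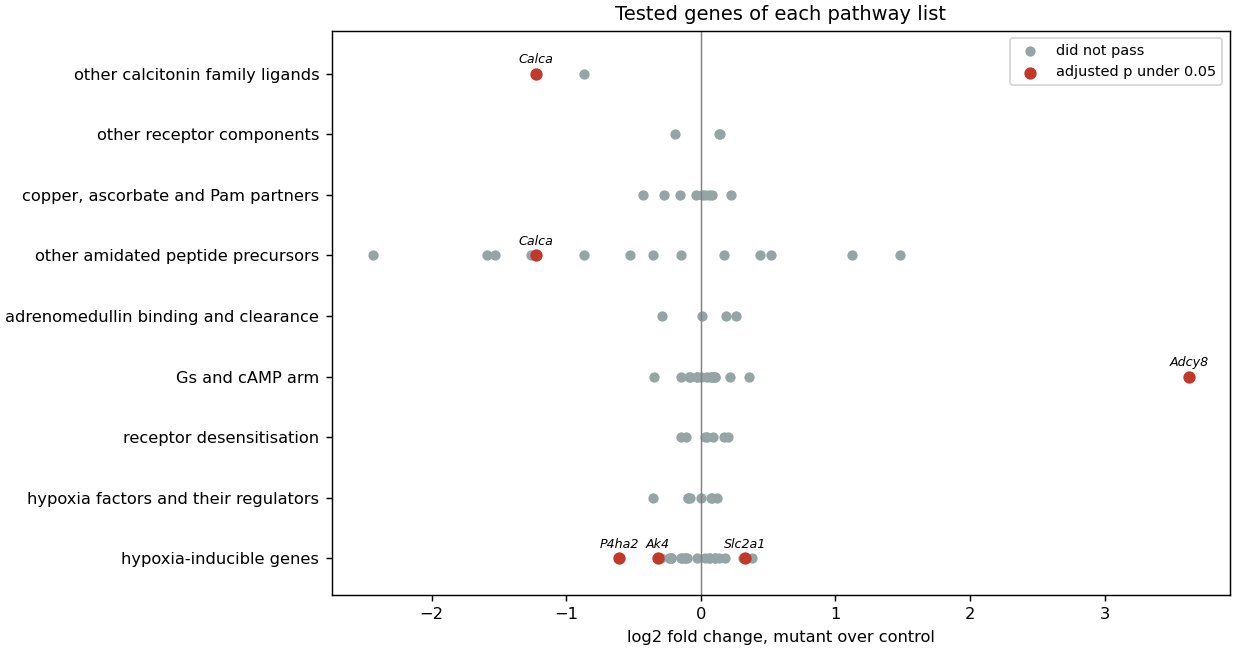
Log2 fold change (mutant over control, horizontal axis) of the tested genes in the 9 pathway lists that are reported here, with genes at adjusted p under 0.05 in red and named. The named genes lie on both sides of 0, with Adcy8 at 3.63 and Calca, listed both as a ligand and as an amidated precursor, at -1.22.

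The tested genes next to each member on the chromosome were set beside it. Sbf2 and Ampd3 flank Adm among tested genes. Sbf2, a phosphoinositide phosphatase-like gene, had a log2 fold change of -0.32 ± 0.08 (SE; adjusted p = 0.056, edgeR) and Ampd3, an AMP deaminase, -0.20 ± 0.12 (adjusted p = 0.38). Gin1, 2.80 kb beside Pam, stood at 0.05 ± 0.11 (adjusted p = 0.83). Flanking genes were chosen by start and end alone, so Vps25, which shares exons with Ramp2, is among them. B230216N24Rik is not among them but shares 188 exonic bases with Pam on the same strand (GENCODE vM21). It stood at -1.42 ± 0.41 (log2 fold change, SE; adjusted p = 0.083, edgeR) on 16 to 55 counts per library. How reads in the shared bases were assigned is not known. Of the 12 flanking genes of the 6 members, 1 passed, against 6.58% of all tested genes, so the count was near the background. Lrrfip1, 51.9 kb from Ramp1, fell by 0.38 on the log2 scale (SE 0.06; adjusted p = 0.011, edgeR). Tfpi, the endothelial coagulation inhibitor beside Calcrl, was at 131 and 142 CPM in mutants 5 and 7, against 167, 152 and 173 CPM in controls 2, 4 and 6, and did not pass (adjusted p = 0.084, edgeR).

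Likeness to Adm and Pam was measured over the 5 libraries as the root mean square difference between log2 CPM profiles, each centred on its own mean, against 13138 other genes. The measure is dominated by the difference between the groups, so it is a description. The genes most like Adm were Slc12a8, a cation-chloride transporter relative (0.10), Gm13054 (0.13), Nppa (0.18), and Lrrc10, a cardiac leucine-rich repeat gene (0.22). Gm13054 runs antisense to Nppa, with 532 exonic bases in common, and without known strand the reads of the pair cannot be told apart. Nppa stood at 849 and 1194 CPM in mutants 5 and 7, against 6207, 6769 and 5281 CPM in controls 2, 4 and 6. Its log2 fold change of -2.58 lay within the SE of that of Adm.

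The genes most like Pam were Dmkn, a secreted protein gene (0.10), Sept3, a septin (0.11), Rph3al, an effector of Rab proteins in secretory granules (0.12), Shisa2 (0.13) and Ecel1, a relative of endothelin-converting enzymes (0.14). All 5 were far scarcer than Pam. Rph3al, for example, had 5.65 and 4.12 CPM in mutants 5 and 7, against 14.6, 13.4 and 13.7 CPM in controls 2, 4 and 6.

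**Figure D5:**
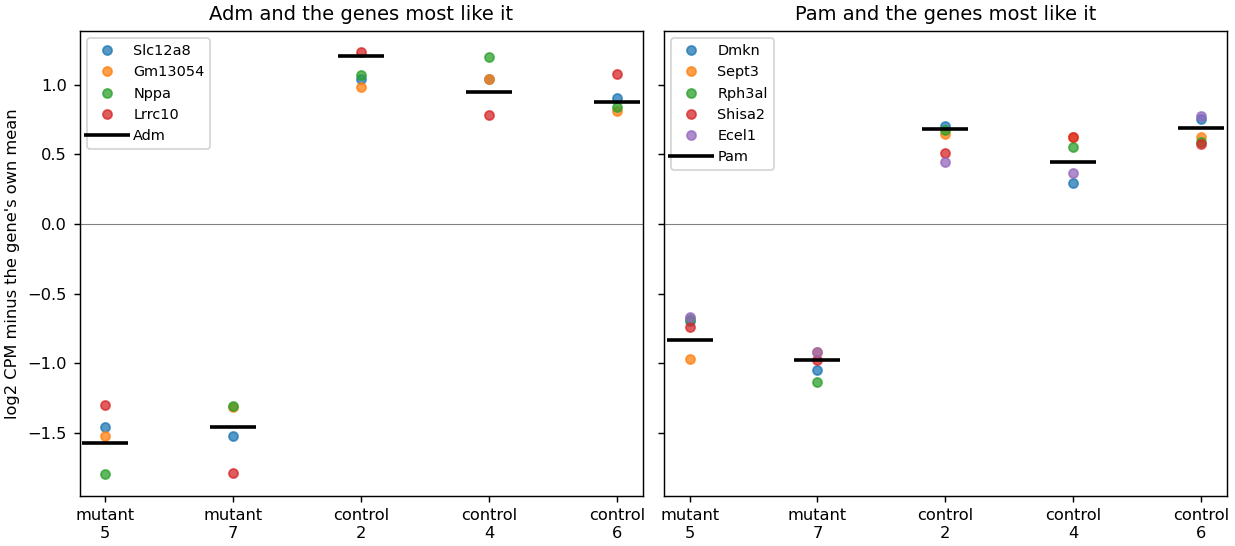
Log2 CPM minus the gene's own mean (vertical axis) in each library for Adm (left) and Pam (right), drawn as bars, and for the genes named as most similar to each, drawn as points. Every gene shown lies below 0 in both mutant libraries and above 0 in the 3 control libraries.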

How the data were processed

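PolyA RNA of atrial tissue was sequenced from libraries made with 250 ng of total RNA, per the labels. The authors deposited raw counts per gene and library; the submitters' processing notes name mm9, HTSeq 0.5.4p3, TopHat2 2.0.4 and DESeq, without roles. No source used here states whether strand was used in counting. RPKM values, which the authors pooled to 1 per group, their log2 ratio and their p-values stand in the same deposited table. Entries for reads without a gene (3.97% to 6.03% per library) and ambiguous reads (2.31% to 3.18%) were left out.

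Counts were analysed with edgeR 4.0.16 (R 4.3.3): filterByExpr with a minimum count of 10 and total of 15, TMM scaling, the robust quasi-likelihood test (two-sided, no covariate) and Benjamini-Hochberg adjustment over all tested genes at 0.05. The fit was tested on simulated data. Levels are CPM on the TMM scale, and per-kilobase levels use the deposited exonic length. Fold changes are mutant over control, and their SE is the fold change over the square root of F. With 2 against 3 libraries, the smallest p that an exact permutation test allows for 1 gene is 0.1. Alternatives were DESeq2 1.42.0, limma-voom (limma 3.58.1), other scalings and filters, sex as a covariate, a threshold of 0.01 and each library left out. The members and lists were chosen with earlier results of these data known. Named genes are the members, list genes that passed (the 4 of smallest p where a list had more), the nearest tested neighbours of the members, and the 5 genes most like Adm and most like Pam among those with mean log2 CPM over 1; other genes were named after their values were seen. A few genes that this rule or the lists hold are counted but not reported here by name. Coordinates of genes are those of the deposited table (mm9). GENCODE vM21 served for names, shared exons and coding lengths.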

Additional observations from a re-analysis of the deposited data

Results flagged for a closer look

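The mutant libraries lay on opposite sides of the controls in males and females for Calcrl and Ramp2, with sex as read from Xist and Ddx3y. For Calcrl, the male mutant library lay below the male control library (a log2 difference, mutant minus control, of -0.17), and the female mutant library lay above both female control libraries (0.40). For Ramp2, the male mutant library lay above the male control library (0.068), and the female mutant library lay below both female control libraries (-0.18). The difference between the sexes was not tested, and with 1 mutant library in each sex it cannot be told apart from a difference between those libraries.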

How the results depend on the processing

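Across the alternatives run, the log2 fold change of Adm lay between -2.60 and -2.43 and that of Pam between -1.60 and -1.45, and neither moved by more than the spread between libraries. Ramp2 (-0.15 to -0.0075) and Ramp3 (0.11 to 0.29) kept their direction and did not pass under any alternative. Calcrl lay between -0.015 and 0.31 with 1 library left out; the negative value came without mutant 7, and it passed under no alternative. Ramp1 passed with sex as a covariate (-0.78), with DESeq2 (-0.71) and with limma-voom (-0.73). Its log2 fold change was -1.02 to -0.47 over all libraries left out in turn. The cause was not tested. Relative to endothelial markers, the difference with 1 library left out was -0.16 to -0.08 for Calcrl, -1.45 to -0.61 for Ramp1, -0.58 to -0.15 for Ramp2 and -0.32 to 0.15 for Ramp3. The difference in the Ramp1 share was -13.2 to -7.45 percentage points in the same repeats. Genes that passed as higher numbered 538, but 203 to 910 with 1 library left out, 960 with DESeq2 and 157 at a threshold of 0.01. Genes that passed as lower numbered 636, but 306 to 804, 1044 and 234 under the same alternatives. With 1 library left out, the lowest counts came without control 4 for higher and without control 2 for lower genes. The pathway lists held 6 genes that passed, but 3 to 9 with 1 library left out, 10 with DESeq2 and 3 at a threshold of 0.01. Counting per kilobase of coding sequence left the Ramp shares within the spread between libraries. No paired analysis was possible because the groups share no replicate number. Without mutant 5 or mutant 7, the lone mutant library is assumed to vary like the controls. Counts of 610 reads or more lie behind each value of Adm, Pam, Calcrl, Ramp1 and Ramp2, whereas Ramp3 had 128 to 238.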

Other observations

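Genes that bind or remove adrenomedullin and genes that quench its receptor are set out here. Of 5 genes of binding and clearance, 0 passed edgeR's test, DESeq2 or limma-voom, and 1 had an unadjusted p under 0.05 in edgeR. That was Ece1, an endothelin-converting enzyme that also cleaves other peptides (log2 fold change 0.26 ± 0.09, SE; unadjusted p = 0.023, adjusted p = 0.15, edgeR). Of 7 genes of receptor desensitisation, 0 passed any of the 3 tools, and 2, Adrbk1 and Grk6, both receptor kinases, had an unadjusted p under 0.05 in edgeR (0.024 and 0.021). Their log2 fold changes were 0.17 ± 0.06 and 0.20 ± 0.07 (SE), and for both genes the mutant libraries lay wholly above the control libraries, as they did for 18.6% of all tested genes.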
